A study of Mus musculus with 8 samples.

Results

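The 113 genes described here are named Zfp and a number, the mouse symbol for zinc finger proteins. They were selected on their read number and name. Of 22810 genes in the deposited counts, 312 had such a symbol. Members needed at least 200 reads summed over all embryos and both strains, which left out 196 genes. The rule also removed 4 genes by name, of which Zfp42 (1191 reads) and Zfp64 (932 reads) had passed the minimum, while Zfp2 (84 reads) and Zfp202 (71 reads) had not. The X-linked Zfp182 was removed as well. In these data Zfp2, Zfp64 and Zfp202 passed the parental test, so the genes that remain were in part chosen by the outcome of that comparison. Just inside the minimum stood Zfp605 (200 reads) and Zfp873 (205 reads), and just outside it Zfp763 (196 reads) and Zfp53 (194 reads).

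RNA of single mouse blastocysts at embryonic day 3.5 was sequenced with SMART-Seq2, a full-length method for small amounts of polyadenylated RNA. The forward cross had a B6 (C57BL/6) mother and a cast (Mus musculus castaneus) father, with 3 embryos. The reverse cross had a cast mother and a B6 father, with 5 embryos, numbered 1, 2, 3, 5 and 7. All embryos came from natural matings without culture, their sexes were not matched, and each embryo was 1 sample. No label ties embryos to litters, so no p-value measures the spread between litters. The test between crosses measures the spread between these embryos. In the main allele fits, maternal and paternal reads of an embryo counted as separate samples, without a term for the embryo. Strain and parent can be told apart because B6 reads are maternal in the forward cross and paternal in the reverse cross.

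Zinc finger proteins of the C2H2 type bind DNA or RNA through short repeated units, each folded around a zinc ion. Many of them in mice carry a KRAB domain at the N terminus. This domain recruits TRIM28 and, through it, the histone methyltransferase SETDB1, which silences retroelements and keeps the marks of imprinted genes in early embryos. KRAB zinc finger genes arose by repeated duplication, lie in clusters and differ between closely related species and strains.

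The label of the samples was checked with marker genes. All 8 trophectoderm, 7 epiblast and 6 primitive endoderm markers had reads. Each embryo had 1060063 to 1632695 reads over a known SNP, of which 57.4% to 58.3% were B6. The Zfp members took 0.536% to 0.939% of these reads. The embryos that stood apart were forward embryo 1, with 706 leukocyte marker reads per 1000000 reads (CPM) against 33.7 and 35.6 in the other forward embryos and at most 5.34 in the reverse embryos, and reverse embryo 1, with 1584 CPM of trophectoderm markers against at least 4970 in every other embryo. In forward embryo 1, 1150 of 1153 leukocyte marker reads were maternal. The 8 oocyte markers summed to 135 to 336 CPM. Cumulus markers (4 of 6 detected, Has2 and Amh at 0) stayed at or below 11.3 CPM, and uterine and oviduct epithelium markers (5 of 6, Foxj1 at 0) between 18 and 86.8. The part of other cells' RNA in the results below was not tested, and the count of each comparison is also given without these 2 embryos.

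Of the 113 members, 50 had a KRAB A box in their longest GENCODE coding sequence, found by a pattern of letters in the translated protein. A box that this pattern or this sequence misses was counted as absent, and how many were missed was not tested. Those 50 had a median of 12 C2H2 fingers, and the 63 members without the box a median of 6. The core of the box is shown for the 6 genes with the largest called log2 fold changes toward B6 among those with more B6 than cast reads in all 8 embryos, all of which had it, and for Zfp809, a silencer of retroviruses that lies beside one of them. Capitals mark 7 of the 13 codons, all at places where the pattern limits the residue. The pattern also limits the residue at codon 6, which is left in lower case.
Zfp157: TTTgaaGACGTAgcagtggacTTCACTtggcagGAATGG
Zfp160: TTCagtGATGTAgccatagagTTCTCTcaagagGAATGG
Zfp808: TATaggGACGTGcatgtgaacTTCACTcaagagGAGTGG
Zfp7: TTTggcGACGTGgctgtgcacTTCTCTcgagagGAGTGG
Zfp599: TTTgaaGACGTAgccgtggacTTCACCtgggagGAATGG
Zfp251: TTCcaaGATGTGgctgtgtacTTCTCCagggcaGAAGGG
Zfp809: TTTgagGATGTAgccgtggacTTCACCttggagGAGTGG

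These stretches of 39 bases lie in mm10 at chr5:138444764-138444802 (plus strand) for Zfp157, chr17:21020084-21020122 (plus) for Zfp160 and chr13:62169454-62169492 (plus) for Zfp808. They lie at chr15:76881124-76881162 (plus) for Zfp7, chr9:22258121-22258159 (minus) for Zfp599, chr15:76870358-76870396 (minus) for Zfp251 and chr9:22235032-22235070 (plus) for Zfp809. All are coding exons. Across the 7 genes, 15 of 39 bases were alike. Zfp599 and Zfp157, on different chromosomes, differed at 3 bases, and Zfp599 and its neighbour Zfp809 at 4 bases. Zfp808 and Zfp251 differed most among these genes, at 18 bases.

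The first comparison asked whether the B6 and cast alleles of each gene were read alike, whichever parent gave them. Of the 113 members, 14 passed the test between strains, 13 toward B6 and 1 toward cast. Zfp516 and Zfp870 are among the 13, with B6 shares of 49.0% and 61.0% in forward and 99.5% and 97.8% in reverse embryos. For both genes the B6 excess lay mostly in the reverse cross. Over all 12565 autosomal genes tested, 15.5% were called in either direction, 11.0% toward B6 and 4.45% toward cast, and of the 7505 tested genes with at least 200 reads 15.1% were called. The share of members called, 12.4%, was near this background. Without forward embryo 3 there were 8 calls, without forward embryo 1 there were 9, and without both forward embryo 1 and reverse embryo 1 there were 11, of which 10 were toward B6 and 1 toward cast. The shares of all tested genes called in these reduced fits are not given here. The test was edgeR's quasi-likelihood test on the 16 allele libraries with strain and parent as terms, and a call needed a Benjamini-Hochberg adjusted p of at most 0.1. The scaling sets the typical gene to no difference, so a log2 fold change of 0 stood for a B6 share above 50% of reads. The median log2 fold change, cast over B6, was -0.16 over members, -0.06 over all genes tested and 0.02 over those with at least 200 reads.

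Members with a KRAB A box made up 10 of the 13 calls toward B6. These were 20% of the 50 KRAB members, beside 15.5% of all tested genes called in either direction and 11.0% toward B6. By edgeR and DESeq2 none of the 50 was called toward cast, where 2 had an unadjusted p under 0.05, although Zfp74 was called with a term for each embryo and without reverse embryo 1. The KRAB members had a median log2 fold change of -0.41 and a median B6 share of 60.7%. Among the 63 members without the box, 3 were called toward B6 and 1 toward cast, which was 6.35%, with a median log2 fold change of -0.04 and a median B6 share of 56.5%. The median B6 share of all tested genes with at least 200 reads was 55.4%. These counts are a description, and the difference between both kinds of gene was not tested. Leaving out forward embryo 1 and reverse embryo 1 together gave 9 KRAB calls and 1 other call toward B6. A term for each embryo gave 15 KRAB calls and 3 others, and 3 calls toward cast in place of 1, of which 1 was the KRAB gene Zfp74. How many of all tested genes these other fits called between strains is not given, so their counts have no background.

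**Figure D1:**
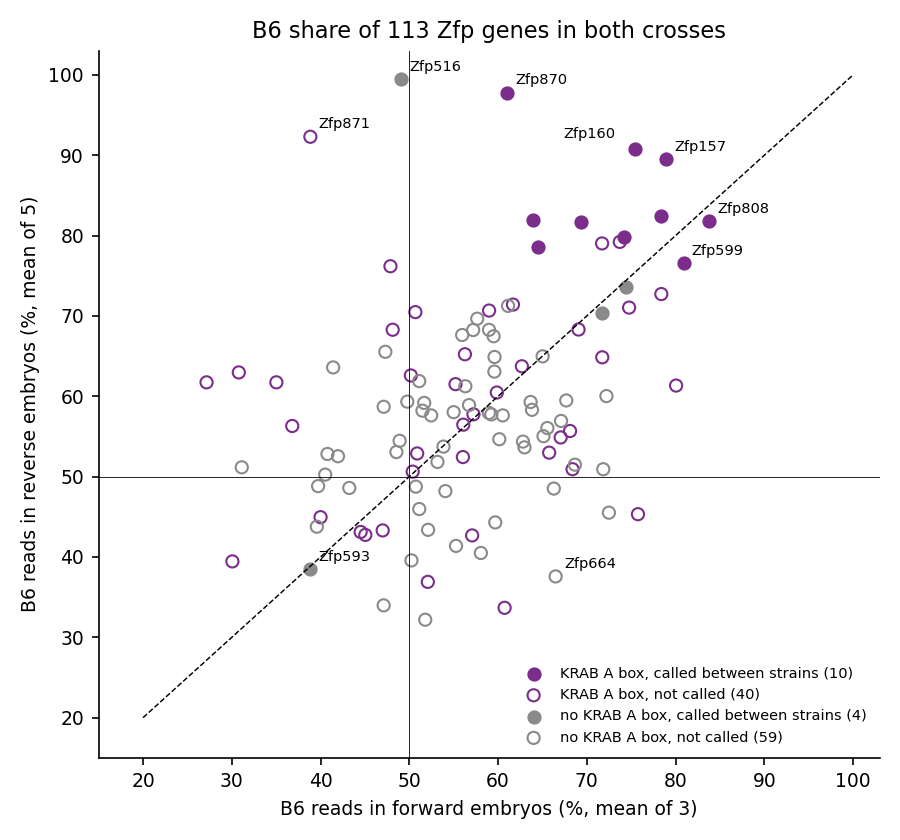
B6 reads of each Zfp gene as a percentage of its reads, mean of 3 forward embryos (horizontal axis) against mean of 5 reverse embryos (vertical axis), coloured by the KRAB A box and filled where the test between strains passed. The filled points lie in the upper right, apart from Zfp593 at 38.8% and 38.5% and Zfp516 and Zfp870 at the top, and a gene above the dashed line has a higher paternal share in the reverse cross than its maternal share in the forward cross.

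Zfp599, a KRAB gene on chromosome 9 (chr9:22247430-22259895, minus strand) with 10 fingers, had the lowest p among the members. Its B6 reads in forward embryos 1, 2 and 3 were 178, 98 and 97, against 44, 22 and 23 cast reads. In the reverse embryos 151, 93, 110, 106 and 78 B6 reads stood against 39, 46, 23, 25 and 29 cast reads. B6 reads exceeded cast reads in all 8 embryos, and the shares in both crosses overlapped (80.9% ± 0.745 forward, SD, n = 3, and 76.6% ± 6.55 reverse, SD, n = 5). The log2 fold change, cast over B6, was -1.57 (SE 0.23, edgeR adjusted p = 3.6e-05).

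Its neighbour Zfp809, which silences murine leukaemia proviruses in embryonic stem cells, lies 4076 bases away on the opposite strand. The B6 share of Zfp809 was 57.2% ± 8.89 in forward and 57.8% ± 11 in reverse embryos (SD, n = 3 and 5), close to the share of all reads. Its strain log2 fold change was -0.15 (edgeR adjusted p = 0.780).

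Zfp7 and Zfp251 are also neighbours, 7824 bases apart on opposite strands of chromosome 15, and both were called toward B6. For Zfp7 (16 fingers, 902 reads) the forward embryos had 105, 94 and 102 B6 reads against 36, 25 and 23 cast reads. Its reverse embryos had 107, 109, 102, 68 and 46 B6 reads against 11, 14, 27, 15 and 18. The share was 78.4% ± 3.61 forward and 82.4% ± 7.57 reverse (SD, n = 3 and 5), and the log2 fold change -1.73 (SE 0.29, edgeR adjusted p = 1.58e-04). Zfp251 (11 fingers, 256 reads) had a share of 74.2% ± 13.2 forward and 79.8% ± 6.44 reverse (SD, n = 3 and 5), above 50% in all 8 embryos, and a log2 fold change of -1.54 (SE 0.37, edgeR adjusted p = 0.00622). None of its coding 50-base stretches occurred in another annotated gene, while 19.6% of those of Zfp7 did, mostly in the overlapping Gm49527.

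Zfp157 on chromosome 5 had the highest mean B6 share of all members, 84.2% as the mean of both crosses. Its forward embryos had 31, 28 and 13 B6 reads against 10, 7 and 3 cast reads. In the reverse embryos 121, 41, 11, 40 and 6 B6 reads stood against 14, 5, 5, 0 and 0. A count of 0 allows a cast share of up to 7.5% in reverse embryo 5, and the 6 reads of reverse embryo 7 set no useful limit. Reverse embryo 1 alone held 40.3% of its reads, and its log2 fold change was -2.14 (SE 0.61, edgeR adjusted p = 0.0219). Without forward embryo 2 the call was lost (log2 fold change -2.07, adjusted p = 0.104).

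Zfp160 on chromosome 17, with 18 fingers, had 25, 36 and 39 B6 reads against 17, 8 and 7 cast reads in the forward embryos. The reverse embryos had 118, 47, 17, 34 and 42 B6 reads against 15, 11, 2, 1 and 1. All 8 embryos had more B6 than cast reads (75.4% ± 13.8 forward and 90.8% ± 6.87 reverse, SD, n = 3 and 5), and the log2 fold change was -2.09 (SE 0.46, edgeR adjusted p = 0.00341). None of its coding 50-base stretches were shared with another gene.

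Zfp808 on chromosome 13, which shares the highest number of fingers among KRAB members (22) with Zfp26, had a B6 share of 83.8% ± 4.71 forward and 81.8% ± 5.74 reverse (SD, n = 3 and 5). The lowest embryo had 75.7% and the highest 90.7%, so the shares of both crosses overlapped and all lay above 50%. Its log2 fold change was -1.93 (SE 0.35, edgeR adjusted p = 4.51e-04). As 44.3% of its coding 50-base stretches occur in 17 other genes, most often Zfp934, its reads are uncertain even though the authors removed reads with several positions.

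The remaining KRAB calls toward B6 were smaller or less stable. Zfp626 (log2 fold change -1.33), Zfp933 (-1.33), Zfp930 (-1.13) and Zfp870 (-1.77) each lost the call without at least 2 of the embryos in turn. Zfp626 lost it without forward embryo 1 or 3 (adjusted p = 0.146 and 0.160), and Zfp933 without any 1 of the forward embryos (0.109 to 0.206). Zfp930 and Zfp870 had adjusted p-values of 0.0894 and 0.0879 with all embryos, close to the threshold. The B6 share of Zfp870 was 61.0% ± 12.8 forward and 97.8% ± 4.97 reverse (SD, n = 3 and 5). Of the calls without a KRAB A box, Zfp329 (12 fingers, log2 fold change -1.27, edgeR adjusted p = 0.0416) lost it without forward embryo 1 (-0.94, adjusted p = 0.347).

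Zfp106, an RNA-binding protein with 2 fingers, had the most reads among the calls, 6243. Its B6 reads in the forward embryos were 711, 479 and 597 against 266, 248 and 184 cast reads. In the reverse embryos 699, 547, 445, 532 and 416 B6 reads stood against 316, 220, 176, 218 and 189. The share was 71.7% ± 5.36 forward and 70.3% ± 1.39 reverse (SD, n = 3 and 5), above 50% in all 8 embryos (log2 fold change -0.95, SE 0.20, edgeR adjusted p = 0.00217). Gm26899 overlaps it on the opposite strand and holds 40.5% of its coding 50-base stretches, and the use of strand in the counting is not given in the sources used here.

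Zfp593, which takes part in the assembly of the large ribosomal subunit, was the 1 member called toward cast. In the forward embryos 270, 294 and 281 B6 reads stood against 521, 382 and 441 cast reads, and in the reverse embryos 114, 508, 338, 348 and 279 against 306, 591, 603, 461 and 417. Cast reads exceeded B6 reads in all 8 embryos, with a B6 share of 38.8% ± 4.68 forward and 38.5% ± 7.39 reverse (SD, n = 3 and 5). The log2 fold change was 0.94 (SE 0.29, edgeR adjusted p = 0.0345). The call was lost without forward embryo 1 (adjusted p = 0.146), without forward embryo 3 (0.133) and with 1 library size per embryo (0.169). E130218I03Rik, on the opposite strand, holds 73.4% of its coding 50-base stretches, so the reads of these genes cannot be told apart where strand was not used.

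**Figure D2:**
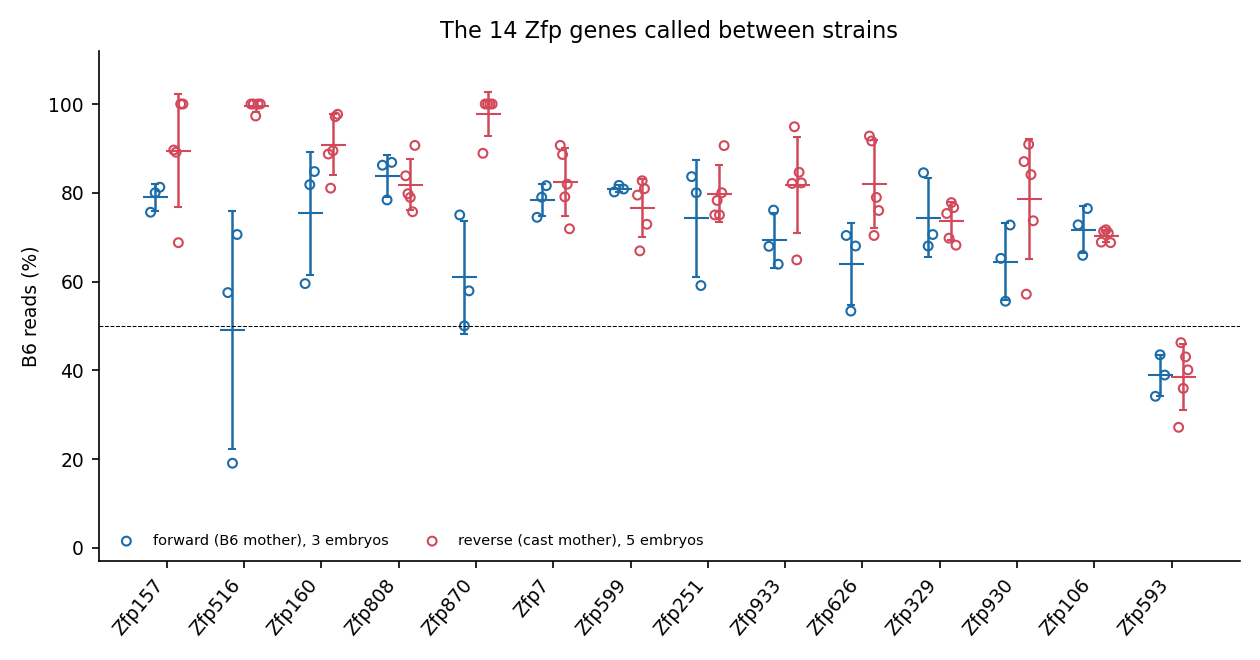
B6 reads as a percentage of all reads of the gene in each embryo (open circles), with mean and SD for 3 forward embryos (blue) and 5 reverse embryos (red), for the 14 Zfp genes called between strains in the order of their log2 fold change. Zfp593 lies below the dashed line at 50% in every embryo, and Zfp516 and Zfp870 are near 100% in the reverse embryos and spread widely in the forward embryos.

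B6 is the strain of the reference genome to which the reads were aligned, and all embryos had more B6 than cast reads over all genes. How far alignment moved the share of each Zfp gene was not tested. Members that shared over 1% of their coding 50-base stretches with other genes had 7 calls toward B6 and 1 toward cast among 46, and the 67 with at most 1% had 6 toward B6. Within the 25 KRAB members with at most 1%, 4 were called, and within the 42 others with at most 1%, 2 were called. The other genes include annotations that overlap a member at the same place, as Gm26899 does Zfp106. This split is therefore not a measure of reads with several positions. Of 52 members within 250 kb of another member, 9 were called (17.3%), and of the 61 others 5 (8.20%), beside 15.5% of all tested genes. KRAB members made up 35 of these 52 genes and 7 of these 9 calls, and the difference was not tested. Members lay on 19 autosomes, with 27 on chromosome 7, of which 2 were called between strains.

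Some members were read almost only from 1 allele in single embryos. Among 794 pairs of a member and an embryo with at least 20 reads, 36 had at least 90% of reads from 1 strain, which was 4.53%, against 5.92% for all tested genes with at least 200 reads. Of the 36 pairs, 31 leaned to B6 and 5 to cast, and 28 members were involved, none of them in both directions. The reverse embryos held 30 of the pairs among 497, and the forward embryos 6 among 297. These splits by strain and cross were not made for all tested genes, so they are not shown to be particular to the members. Zfp248 in reverse embryo 1 had 193 B6 and 9 cast reads, while in reverse embryo 2 it had 23 and 26, and it was named after its values were seen.

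The known roles of the members were described next, from lists of genes grouped by function. The first list held 6 genes, of which 3 were members. Zfp57, Zfp445 and Zfp568 were listed for imprint control, and Zfp264, Zfp597 and Zfp74 for being on published lists of imprinted genes. Zfp57 (66 reads) and Zfp597 (93 reads) were under the minimum, and Zfp264 has no row. Zfp445, which keeps imprints together with Zfp57, had 30, 16 and 34 B6 reads against 19, 12 and 17 cast reads in the forward embryos, and 25, 47, 24, 29 and 17 against 23, 13, 2, 19 and 6 in the reverse embryos. B6 exceeded cast in all 8 embryos, but the strain test did not pass (log2 fold change -0.63, edgeR adjusted p = 0.339), except with 1 library size per embryo (-0.97, adjusted p = 0.0846). Zfp568, which represses a placental promoter of Igf2, had 2770 reads and shares of 56.0% ± 9.12 forward and 52.4% ± 8.78 reverse (SD, n = 3 and 5). Zfp74 had the lowest mean B6 share of all members, 34.8%, with 7.14% to 75.0% over the embryos, and did not pass the test (log2 fold change 1.21, edgeR adjusted p = 0.164). The fit with a term per embryo called it toward cast (1.30, adjusted p = 0.0700), as did the fit without reverse embryo 1 (1.41, adjusted p = 0.0567).

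Of the 4 retroelement repressors, Zfp809 and Zfp932 were members, while Zfp819 (133 reads) and Zfp708 (168 reads) were not. Neither was called between strains by edgeR or DESeq2, and neither had an unadjusted p under 0.05. Zfp932 had a B6 share of 71.7% ± 12.6 forward and 64.8% ± 3.03 reverse (SD, n = 3 and 5), above 50% in all 8 embryos (log2 fold change -0.72, edgeR adjusted p = 0.248), and it was called with 1 library size per embryo (-1.04, adjusted p = 0.0602). Of its coding 50-base stretches, 55.6% occur in other genes.

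None of the 5 listed transcription factors of pluripotent cells and embryos passed the edgeR test between strains, none had an unadjusted p under 0.05 and DESeq2 called none. Zfp148 (1605 reads) had shares of 52.5% ± 8.19 and 57.6% ± 8.47, and Zfp143, which binds many promoters, 50.7% ± 12.4 and 48.8% ± 14 (SD, n = 3 forward and 5 reverse). Zfp217 ranged from 58.1% ± 14.2 to 40.5% ± 15.9 between the crosses, and Zfp292 and Zfp296 were measured at 339 and 249 reads. The 7 listed chromatin and corepressor partners had a median B6 share of 47.2%, and neither edgeR nor DESeq2 called any of them between strains, nor did any have an unadjusted p under 0.05. Zfp609, which works with cohesin loading factors, had 1596 reads and shares of 60.1% ± 8.55 and 54.7% ± 8.64, and Zfp592, which is found with Zfp532 in one complex, 59.6% ± 5.58 and 63.1% ± 10.6 (SD, n = 3 and 5). Zfp410, the activator of Chd4, had 50.2% ± 10.4 and 39.6% ± 12.6, and Zfp644, a partner of the G9a methyltransferase, had 217 reads and SDs of 29.2 and 20.6 percentage points.

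Among the 9 listed genes of RNA, ribosomes and the spindle, Zfp106 and Zfp593 were called between strains as given above. Zfp706 was the member with the most reads (7965), with shares of 53.8% ± 3.12 forward and 53.7% ± 5.04 reverse (SD, n = 3 and 5). Of its coding stretches, cut to the same length as above, 92.2% occur in 2 other genes, most often Gm10193 (68.2%). The reads of Zfp706 are therefore uncertain, even though the authors removed reads with several positions. For Zfp622, a factor of ribosome assembly, the shares were 53.2% ± 5.14 and 51.8% ± 14.3. Zfp598, which marks collided ribosomes, had 47.3% ± 3.04 and 65.5% ± 16.1. Zfp638 had 68.7% ± 3.48 in the forward and 51.5% ± 7.39 in the reverse embryos, and neither of its allele tests passed.

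**Figure D3:**
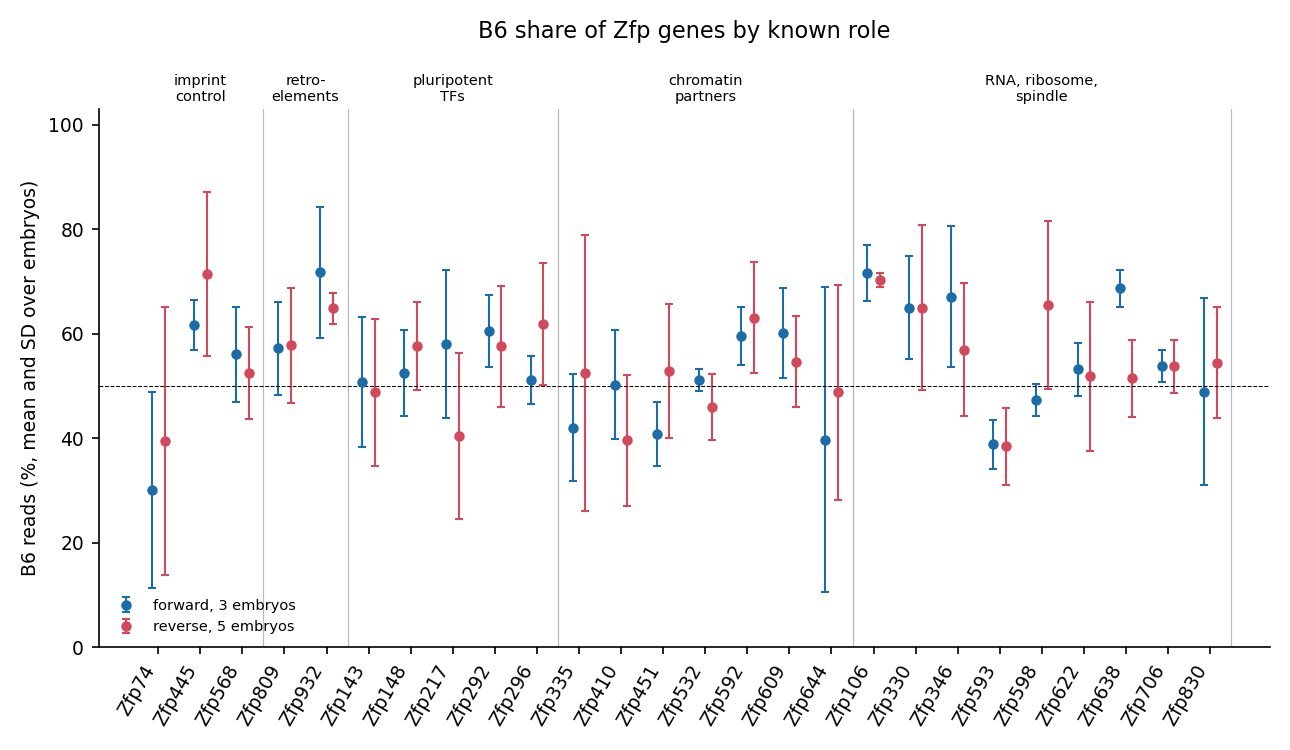
B6 reads as a percentage of all reads, mean and SD over 3 forward (blue) and 5 reverse (red) embryos, for the 26 members of the role lists, grouped by known role. Zfp106 above and Zfp593 below 50% have the only intervals of this plot that belong to called genes, and most other genes have SDs that reach or cross the dashed line at 50%.

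The corepressors through which KRAB zinc finger proteins act were examined as the rest of the pathway, with 25 of 26 listed genes tested. Trim28, the scaffold that binds the KRAB domain, had 7852 reads and a B6 share of 49.3% ± 2.74 forward and 47.8% ± 1.09 reverse (SD, n = 3 and 5). Between strains 2 genes were called toward B6, Hdac1 (log2 fold change -1.66) and Uhrf1 (-1.92), and 2 toward cast, Morc2a (1.53) and Mbd3 (0.78). The 4 calls among 25 genes were near the background. The Mbd3 call was lost without any 1 of 6 embryos in turn (adjusted p = 0.131 to 0.163). Setdb1 was not called (-0.64, edgeR adjusted p = 0.231), except with 1 library size per embryo (-0.98, adjusted p = 0.0414). Between parents edgeR and DESeq2 called none, 1 gene had an unadjusted p under 0.05, and 22 of 25 were equivalent by the test described below. Of all tested genes 35.6% were equivalent, and 59.1% of those with at least 200 reads. The listed genes had a median of 1092 reads, against 681 for the tested genes with at least 200 reads. The part of read depth in this difference was not tested.

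The parental comparison asked whether the maternal and paternal alleles were read alike, whichever strain they came from. Of the 113 members, 1 passed, Zfp516, toward the paternal allele. Over all tested genes 1.42% were called, and 1.32% of those with at least 200 reads, so the share of members called was near this background, although genes with paternal calls had been removed by name. Another 4 members had an unadjusted p under 0.05, and DESeq2 also called only Zfp516. Of all 12565 genes tested, 920 had an unadjusted p under 0.05 and DESeq2 called 255. Among the 7505 with at least 200 reads these numbers were 362 and 130. The median log2 fold change, paternal over maternal, was -0.01 over members and -0.01 over all genes tested. The mean of the maternal shares in both crosses lay between 40% and 60% for 98 members, above 60% for 5 and below 40% for 10.

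Maternal and paternal reads of 1 embryo come from the same individual, so the fit was repeated with a term for each embryo. It called 4 members, against 3.1% of all tested genes. They were Zfp516, Zfp870 and Zfp871 toward the paternal and Zfp664 toward the maternal allele. Without forward embryo 1 and reverse embryo 1 edgeR called no member between parents, and 5 had an unadjusted p under 0.05. The share of all tested genes under that p is not given for this fit.

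Zfp516, a zinc finger transcription factor with 7 fingers on chromosome 18 (chr18:82910663-83005314, plus strand), passed both the strain and the parental test. The fit adds a strain and a parental effect and has no term for their combination. It cannot tell such a combination from separate effects. Summed over the forward embryos, the gene had 39 maternal B6 and 39 paternal cast reads. In the forward embryos 23, 4 and 12 maternal B6 reads stood against 17, 17 and 5 paternal cast reads. In the reverse embryos the paternal B6 allele had 69, 29, 36, 13 and 13 reads and the maternal cast allele 0, 0, 1, 0 and 0. A count of 0 allows a maternal share of up to 4.35% in reverse embryo 1 and 23.1% in reverse embryos 5 and 7. The forward embryos read both alleles and the reverse embryos almost only the paternal one, with no overlap of the B6 shares between the crosses. The log2 fold change, paternal over maternal, was 2.5 (SE 0.63, edgeR adjusted p = 0.0553), and cast over B6 it was -2.09 (SE 0.63, edgeR adjusted p = 0.0315). The paternal share exceeded 50% in all reverse embryos but in 1 of 3 forward embryos. The parental call was lost without forward embryo 2 (adjusted p = 0.250), reverse embryo 1 (0.143), reverse embryo 2 (0.122) or reverse embryo 3 (0.155), with log2 fold changes of 2.14 to 2.54, and the strain call without forward embryo 3 (0.111). The gene had 239 reads in all.

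Zfp871 and Zfp870 had the next lowest p toward the paternal allele. They lie with Zfp472 and Zfp952 in 240 kb of chromosome 17 (chr17:32765496-33005457), a stretch that holds 4 members and was singled out after the values were seen. Zfp871 had 27, 25 and 14 maternal reads against 55, 40 and 17 paternal reads in the forward embryos, and 12, 1, 0, 0 and 5 against 70, 9, 11, 30 and 31 in the reverse embryos. Paternal reads exceeded maternal reads in all 8 embryos, and the counts of 0 allow a maternal share of up to 27.3% in reverse embryo 3. Its parental log2 fold change was 1.74 (SE 0.63, edgeR adjusted p = 0.358), and 1.99 in the fit with an embryo term (adjusted p = 0.00501).

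Zfp870 had 27, 13 and 22 maternal reads against 9, 13 and 16 paternal reads in the forward embryos, and 8, 0, 0, 0 and 0 against 64, 10, 16, 27 and 15 in the reverse embryos. The maternal allele was ahead or level in the forward embryos and behind in all reverse embryos, and a count of 0 allows a maternal share of up to 11.1% in reverse embryo 5. Its parental log2 fold change was 1.41 (SE 0.65, edgeR adjusted p = 0.619), and 1.97 in the fit with an embryo term (adjusted p = 0.0445). Zfp952, 101 kb away, leaned the other way (log2 fold change -1.06, edgeR adjusted p = 0.656), with 54, 24 and 14 maternal reads against 5, 7 and 10 paternal reads forward and 28, 15, 3, 10 and 12 against 13, 1, 16, 8 and 18 in reverse embryos.

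Zfp664 on chromosome 5 leaned to the maternal allele in every embryo. Its maternal reads were 93, 66 and 90 against 41, 33 and 52 paternal reads in the forward embryos, and 80, 55, 80, 90 and 29 against 23, 26, 73, 52 and 28 in the reverse embryos. The maternal share was 66.5% ± 3.02 forward and 62.4% ± 11.2 reverse (SD, n = 3 and 5). The log2 fold change was -0.82 (SE 0.31, edgeR adjusted p = 0.388), and -0.89 in the fit with an embryo term (adjusted p = 0.0314). Zfp458 had a log2 fold change of -0.79 (edgeR adjusted p = 0.852), with maternal shares of 80.1% ± 11.8 forward and 38.7% ± 19 reverse (SD, n = 3 and 5).

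**Figure D4:**
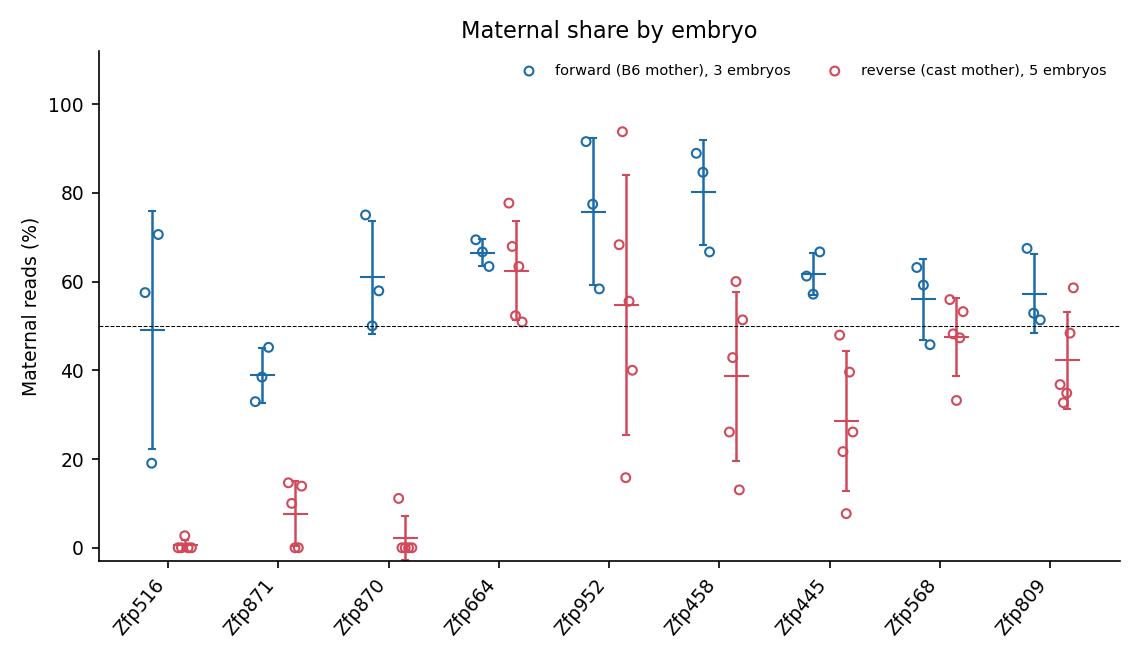
Maternal reads as a percentage of all reads in each embryo (open circles), with mean and SD for 3 forward (blue) and 5 reverse (red) embryos, for the 3 members with the lowest p in each parental direction and for Zfp445, Zfp568 and Zfp809. In the reverse embryos Zfp516, Zfp871 and Zfp870 lie near 0, and Zfp664 lies above the dashed line at 50% in all 8 embryos.

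Equal reading of both parental alleles was examined with 2 one-sided tests, 1 against each side of a 2-fold margin, in the same edgeR fit. Of the 113 members, 44 were equivalent at an adjusted p of at most 0.1. Over all genes tested 35.6% were equivalent, and 59.1% of those with at least 200 reads, which had a median of 681 reads against 352 for the members. Zfp809 (adjusted p = 0.0166), Zfp106 (0.0166), Zfp599 (0.0176), Zfp568 (0.0192), Zfp593 (0.0197) and Zfp445 (0.0793) were among them, so several genes with a strain difference had parental alleles within this margin. Without forward embryo 1 and reverse embryo 1 there were 53, while leaving out single embryos lowered the number to 12 (forward embryo 3), 17 (forward embryo 2), 18 (forward embryo 1) and 29 (reverse embryo 5). With a margin of 1.5-fold none was equivalent. The median SE of the parental log2 fold change over members was 0.43, and this limits what could be called either way.

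The last comparison asked whether the summed reads of both alleles differed between the crosses. None of the 113 members passed edgeR's test between reverse and forward embryos, DESeq2 called none, and 9 had an unadjusted p under 0.05. Without forward embryo 1 and reverse embryo 1 edgeR again called 0, and 10 had an unadjusted p under 0.05. Over the 10483 genes tested 0.0668% were called, and 7.15% had an unadjusted p under 0.05. The median log2 fold change, reverse over forward, was -0.01 over members and 0.06 over all genes tested. In bulk RNA of an embryo, fewer cells that read a gene and less RNA per cell cannot be told apart.

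The 9 genes were chosen after their values were seen. Zfp444 had the lowest p, with 67.3, 106 and 70.2 CPM (TMM-scaled) in the forward embryos and 52.9, 50.8, 26.9, 38.1 and 47.2 in the reverse embryos. The groups did not overlap, and the log2 fold change was -0.90 (SE 0.33, edgeR adjusted p = 0.541). Zfp248 had 11, 10.7 and 14 CPM forward, and 127, 31.5, 7.34, 38.9 and 29.5 in the reverse embryos. Reverse embryo 1 was far above the others and reverse embryo 3 below all forward embryos (log2 fold change 1.98, SE 0.73, edgeR adjusted p = 0.548). For Zfp84, Zfp710, Zfp574 and Zfp553 the log2 fold changes were -1.31, -0.67, -0.99 and -0.88, and for Zfp438, Zfp330 and Zfp790 they were 1.37, 0.98 and 1.08.

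Reverse embryo 1 held the most reads of 53 members, and forward embryo 1 those of 28. These are reads without scaling, and forward embryo 1 had the most reads of all embryos (1632695, against 1505155 in reverse embryo 1). Such counts are not given for all tested genes. The median SD of log2(CPM + 1) over the reverse embryos was 0.61 for members and 0.60 for all tested genes with at least 200 reads, and over the forward embryos 0.35 and 0.30. The trophectoderm markers were lowest in reverse embryo 1, and the part of cell composition in the members' levels was not tested.

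**Figure D5:**
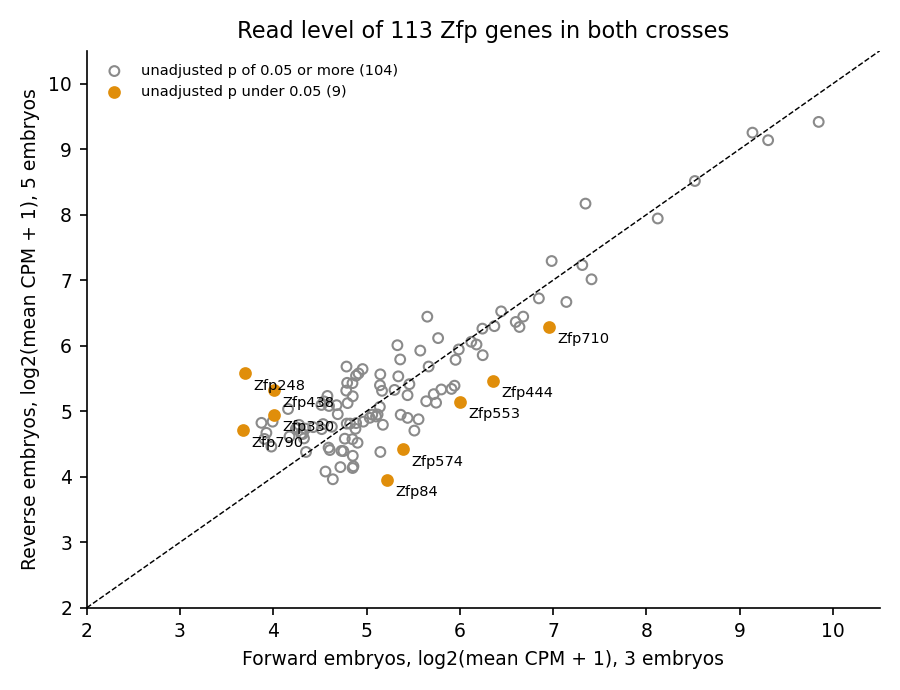
Read level of each Zfp gene in forward embryos (horizontal axis, mean of 3) and reverse embryos (vertical axis, mean of 5), as log2 of mean CPM plus 1, with both alleles summed. Most of the 113 genes lie near the dashed line of equal level, and the 9 filled genes with an unadjusted p under 0.05 lie on both sides of it, none called after adjustment.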

How the data were processed

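Single blastocysts from natural matings were sequenced with SMART-Seq2. STAR was used by the authors for alignment to mm10 (2.5.2b in the submitters' processing notes, which also name SAMtools 1.9-92 and bedtools). They dropped reads with several positions and kept reads over annotated SNPs. The deposited values are raw counts of these reads per gene, embryo and strain, from a step of Allelome.Pro, without normalization. The authors had removed samples 4 and 6.

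The members and lists were chosen with earlier results of these data known. Reads were assigned to parents by cross. Positions and coding sequences came from GENCODE M21, in which all 113 members were found. Zinc fingers and KRAB boxes were searched in these translated sequences, in place of the RefSeq proteins planned at first. edgeR 4.0.16 (R 4.3.3, limma 3.58.1) was used with TMM factors, for autosomal genes with at least 10 reads in 1 allele library. For the crosses, reads per embryo were summed and 10 reads in 3 embryos were required. Adjustment was over all genes tested. Each SE given is the absolute log2 fold change divided by the square root of the quasi-likelihood F statistic. DESeq2 1.42.0, other size factors and filters, other read minimums and each embryo left out were alternatives. The fits were tested on simulated data. Embryo deviations of maternal and paternal reads correlated in every embryo (r = 0.132 to 0.677), so the embryo term was used as the paired fit. No pair of embryos agreed within sampling noise (chi-square per gene of at least 5.40).

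Named were members of the role lists, the up to 6 largest called genes toward each strain with the same direction in every embryo of 5 or more reads (at least 6 embryos), and parental calls with the 3 lowest p in each direction. The other strain calls and other genes were named after their values were seen. The zinc finger pattern was C, 2 to 4 residues, C, 12 residues, H, 3 to 5 residues, H or C. Limits for a count of 0 take 3 reads and cover counting error only. One list of markers of other cells is not reported here.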

Additional observations from a re-analysis of the deposited data

Results flagged for a closer look

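In the named members, 38 sets of 5 reverse embryos were examined for an embryo far from the others, and 2 were found. The chance rate of this rule, 1 in 20, does not hold for shares at the 100% ceiling. How many chance would give here was not tested. The B6 share of Zfp516 was 97.3% in reverse embryo 3 (36 of 37 reads, Wilson 95% interval 86.2% to 99.5%), while the other 4 reverse embryos had 100%. The B6 share of Zfp870 was 88.9% in reverse embryo 1 (64 of 72 reads, Wilson 95% interval 79.6% to 94.3%) against 100% in the other 4. In both genes the other embryos had no cast read, so any cast read stands apart. The X-linked Zfp182, which entered no comparison, had 253 reads over the 8 embryos.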

How the results depend on the processing

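Called members numbered 14 between strains, 13 toward B6 and 1 toward cast. A single library size per embryo gave 22, 22 and 0. It moved the median strain log2 fold change of all genes from -0.06 to -0.39, and the share of calls toward B6 over all genes from 71.3% to 87.4%. Leaving out 1 embryo gave 8 to 16 calls, 8 to 14 toward B6 and 0 to 2 toward cast, lowest without forward embryo 3 (8) and forward embryo 1 (9). Members with at least 400 reads gave 7 calls (6 toward B6), and those with at least 100 reads gave 19 (4 toward cast). The replicate block, a term for each embryo, gave 21 calls, 18 toward B6 and 3 toward cast. Under these settings the share of all tested genes called is not given, so the member counts have no background beside them. Zfp7, Zfp106, Zfp160, Zfp251, Zfp599 and Zfp808 were called under every setting in which they were tested.

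Between parents 1 member was called, 4 with the replicate block, 2 without a filter on low counts (Zfp516 and Zfp871), 0 with at least 400 reads, 0 without both of forward embryo 1 and reverse embryo 1 (chosen after seeing the data), and 0 to 1 with 1 embryo left out. Equivalent members numbered 44, with 65 under the replicate block, 26 without the filter, 0 at a 1.5-fold margin and 12 to 62 with 1 embryo left out. The largest drops came without forward embryo 3 (12), forward embryo 2 (17), forward embryo 1 (18) and reverse embryo 5 (29). Between crosses 0 members were called by edgeR or DESeq2 under any setting, with 1 to 16 at an unadjusted p under 0.05. The replicate numbers of the labels do not pair embryos across crosses (r = 0.19, 0.01 and 0.14 for numbers 1, 2 and 3), and a block on them called 0. The strain log2 fold change of Zfp809, not called, was 0.053 without forward embryo 1 and reverse embryo 1 and -0.26 to 0.022 with 1 embryo left out. Of 24 role members not called between strains, 11 changed sign under a setting, and 3 others (Zfp445, Zfp74 and Zfp932) were called under one. No called gene changed sign under a setting, and the cause of the changes was not tested. With a median of 352 reads per member, small differences could not be detected.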
